A study of Mus musculus with 2 samples.

Results

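Collagen, laminin and integrin genes were compared between epithelial cells of the mouse pylorus, the part of the stomach that opens into the intestine, sorted for high and for low expression of Lgr5. The members were all array probes whose gene name in the scanner files begins as a collagen chain (Col, number, a, number), a laminin chain (Lama, Lamb or Lamc) or an integrin subunit (Itga or Itgb). The rule found 171 probes of 83 genes, of 27727 gene names on the array. It used gene names only and no measured value. Of the 83 names, 78 were collagen, laminin or integrin genes. The other 5 matched by their first letters only and encode other proteins: Col4a3bp (now Cert1, a ceramide transfer protein), Itgb1bp1, Itgb1bp2, Itgb1bp3 (now Nmrk2) and Itgb3bp. They were kept and are given apart.

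Both populations came from the pyloric tissue of 20 mice with the Lgr5-EGFP-ires-CreERT2 allele, dissociated and sorted by GFP brightness into GFPhigh and GFPlow cells. This knock-in allele, which places GFP and an inducible Cre recombinase under the Lgr5 promoter, was shared by both populations. The populations were hybridised together on 2 Agilent arrays with the dyes exchanged: array 1 carried GFPhigh in Cy3 and array 2 carried it in Cy5. The labels call the arrays a colour switch and do not say whether both used the same RNA extracts. They were treated here as repeat measurements of 1 sample per population. No test between the populations was therefore made and no p-value is given. Each SD below is that of 2 arrays, and it holds technical error only if the extracts were the same. Remarks below on overlap compare 2 intensities per population and are not made for every gene. The share of all measured genes without overlap is not given. In sorted bulk RNA, fewer cells expressing a gene and less RNA per cell cannot be told apart.

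A basement membrane is a thin sheet of matrix under every epithelium, built mainly of laminin trimers (1 alpha, 1 beta and 1 gamma chain) and type IV collagen. Epithelial cells hold on to it through integrins, receptors of 1 alpha and 1 beta subunit that span the cell membrane. Fibrillar collagens form the connective tissue beneath and are made chiefly by fibroblasts and other mesenchymal cells. In gastric glands the epithelium rests on such a membrane from pit to base.

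Of the 83 genes, 19 (22.9%) had a measured probe, meaning that the population with the higher ratio was well above background on both arrays. Over the whole array the share was 28.2% of gene names, or 7830 genes. To be counted as higher, a gene needed a ratio of at least 2-fold in the same direction on both arrays. By this count, 2 of the 19 were higher in GFPhigh: the fibrillar collagen gene Col11a2 and the laminin chain gene Lamb2. The count for GFPlow was 0. Over all 7830 measured genes, 1.76% were counted as higher in GFPhigh and 2.69% as higher in GFPlow. The ratios of the 19 ran from -0.68 to 2.26 on the log2 scale, where a positive value is higher in GFPhigh, with a median of 0.09 against -0.06 over all measured genes. Of the 19, 13 were above background in both populations on each array, with a median of 0.25 against 0.04 over all 6235 such genes. The other 6 were kept through GFPlow alone, so the sign of their mean ratio was set by the rule and is no result. On the arrays 7 of the 19 had ratios of opposite sign. Ratios are relative to the average gene, and centring on spike-in RNA lowered them by 0.78 on average. With that centring Col11a2 was still counted and Lamb2 was not.

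The probes that carry these results are 60-base oligonucleotides in the sense of the transcript, printed 5′ to 3′ as the files give them, with positions on mm9, the build of the file headers. Exons are not given, since an annotation of mm9 was not used here. For Col11a2 and Lamb2, the 2 genes counted as higher in GFPhigh, the measured probes lie at chr17:34202998-34203057 and chr9:108392189-108392248, both on the plus strand. The other Col11a2 probe, which stayed near background in every channel, spans chr17:34189287-34189453, ends 13604 bases before the measured one, and is placed over 167 genomic bases, more than its own length. Its capitals mark 6 GGN triplets, GGN being the codon of glycine, spaced 9 bases apart as in the coding sequence of a collagen triple helix.
Col11a2, measured: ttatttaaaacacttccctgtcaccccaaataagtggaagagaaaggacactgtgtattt
Col11a2, not measured: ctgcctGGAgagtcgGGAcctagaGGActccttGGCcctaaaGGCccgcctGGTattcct
Lamb2: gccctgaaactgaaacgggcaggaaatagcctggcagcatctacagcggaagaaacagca

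A run of at least 5 GGN triplets at 9-base spacing, searched on the printed strand only, was found in 3 of all 41174 gene probes, or 0.00729%. All 3 belong to collagen genes: Col11a2, Col5a1 and Col5a3. None of these 3 probes was measured, and none of the 7 measured collagen probes held such a run. Among the 73 unmeasured collagen probes the share was 4.11%, so 7 measured probes are too few to show a difference. The measured Col11a2 probe has a G and C share of 36.7%, against 61.7% in the unmeasured one. The low share and the missing repeat are descriptions of the letters only.

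The further probe sequences below show 2 genes with more than 1 measured probe. The Itgb4 probes, at chr11:115869547-115869606 and chr11:115869557-115869616 on the plus strand, overlap, and capitals mark the 50 bases they share. They are nearly the same oligonucleotide and so show how far 2 spots of 1 target can differ. The Col18a1 probes, at chr10:76515820-76515879 and chr10:76516065-76516124 on the minus strand, do not overlap.
Itgb4, first probe: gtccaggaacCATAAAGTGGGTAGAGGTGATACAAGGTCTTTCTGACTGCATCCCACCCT
Itgb4, second probe: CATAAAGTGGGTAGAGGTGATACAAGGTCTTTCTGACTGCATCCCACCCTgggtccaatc
Col18a1, first probe: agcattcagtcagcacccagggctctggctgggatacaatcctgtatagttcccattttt
Col18a1, second probe: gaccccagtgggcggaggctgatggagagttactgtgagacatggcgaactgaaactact

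**Figure D1:**
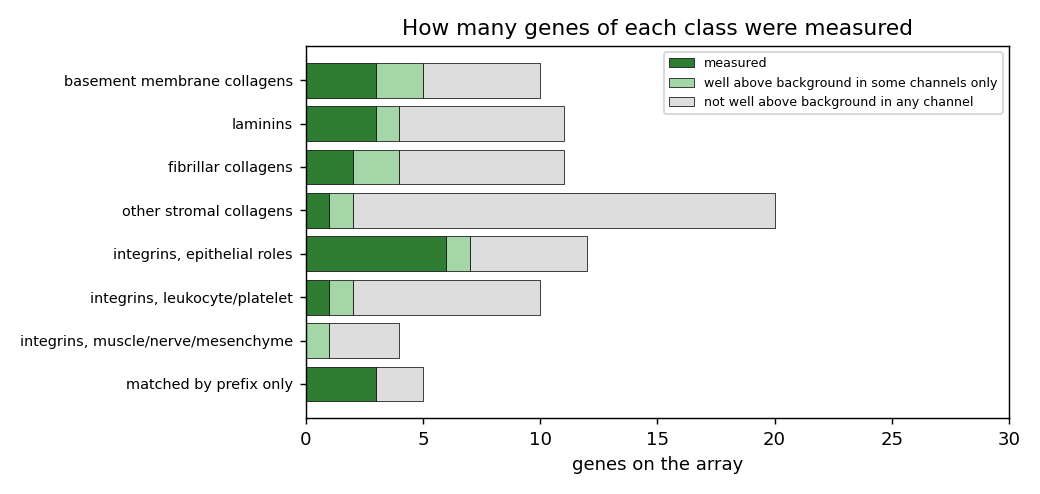
Number of genes in each class (bars, genes on the array), split by whether a probe was measured, was well above background in some channels only, or in none. Integrins with epithelial roles had 6 of 12 genes measured, while 18 of 20 other stromal collagens were not well above background in any channel.

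The number of genes measured is given here by class, beside the share of 28.2% over all gene names on the array. Of 21 basement membrane genes (collagens of that zone and laminins) 6 were measured, of 31 stromal collagens 3, and of 26 integrins 7. The basement membrane genes and the integrins were thus near the share of the array, and the stromal collagens were below it. Among integrins with known epithelial roles 6 of 12 were measured, against 1 of 10 leukocyte and platelet integrins and 0 of 4 integrins known mainly from muscle, nerve and mesenchyme. A total of 55 genes were not well above background in any of the 4 channels. They included the major connective tissue collagens Col1a1, Col3a1, Col5a1, Col5a2, Col6a1, Col6a2 and Col6a3, and the leukocyte integrins Itgal, Itgam, Itgax, Itgae and Itga4. They also included basement membrane chains: Col4a2, Lama5, Lama3, Lama1 and Lamb1-1 (now Lamb1).

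A further 9 genes were well above background in some channels but not measured. Of these, Col27a1, Col2a1, Col4a6, Col9a3 and Itgav were above background in both Cy3 channels and in no Cy5 channel, that is, in GFPhigh on array 1 and in GFPlow on array 2. Itga8 was above background in 1 Cy3 channel, that of GFPhigh. Col4a1, a main chain of type IV collagen, was above background in both populations on array 1 and in neither on array 2, and Itgb3 in GFPlow on array 1 alone. In 5 of these 9 genes detection thus followed the Cy3 channel on both arrays. Over all gene spots the Cy3 channel also had the larger share well above background. That share was 28.6% against 25.1% on array 1 and 31.7% against 18.7% on array 2. What part the dye has in detection was not tested. Over the 131 probes of the 64 unmeasured genes, mean log2 ratios ran from -0.22 to 0.48 with a median of 0, and dim probes are pulled towards 0 by the background correction.

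**Figure D2:**
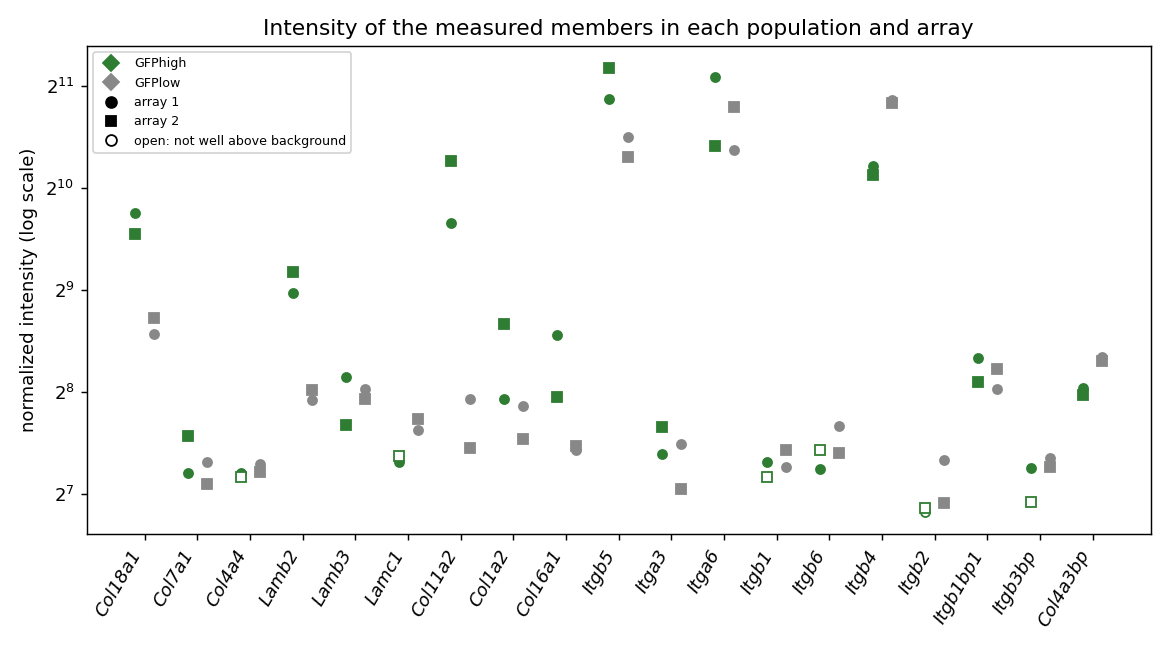
Normalized intensity (log scale) of each measured gene's probe in GFPhigh (green) and GFPlow (grey) on array 1 (circles) and array 2 (squares), with open symbols for channels not well above background. Col11a2, Lamb2 and Col18a1 are brighter in GFPhigh on both arrays, Itgb4 is dimmer there, and intensities of different genes are not comparable because probes differ.

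The laminin chains came first among the basement membrane genes. Lamb2, a beta chain found in basement membranes of muscle, kidney and gut, had normalized intensities of 502 and 579 in GFPhigh on arrays 1 and 2, against 242 and 260 in GFPlow. Both GFPhigh values lay above both GFPlow values. Array 1 gave a log2 ratio of 1.05 and array 2 one of 1.16, averaging 1.1 ± 0.07 (2.15-fold). It is measured by the single Lamb2 probe of the array. It was below the 2-fold threshold without background correction, at 0.89, with median centring, at 0.57, and with spike-in centring, at 0.32.

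Lamb3, a beta chain of epithelial laminin that pairs with Lama3, had intensities of 283 and 205 in GFPhigh, against 261 and 244 in GFPlow. These values overlap, and the log2 ratios of 0.12 and -0.25, a mean of -0.07 ± 0.26, had opposite signs on the arrays. Its partner Lama3 was above background in no channel. Lamc1, the gamma chain of most laminins, had intensities of 159 and 166 in GFPhigh, against 198 and 214 in GFPlow. The log2 ratio was -0.32 and -0.36 on the arrays, a mean of -0.34 ± 0.03. Lamc1 was above background in GFPhigh on array 1 only and was kept through GFPlow, so the filter fixed the sign of its mean ratio.

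Of the collagens of the basement membrane zone, Col18a1, the precursor of the angiogenesis inhibitor endostatin, stood highest. Its brighter probe had intensities of 862 and 751 in GFPhigh, against 379 and 424 in GFPlow, and the populations did not overlap. Array 1 gave a log2 ratio of 1.19 and array 2 one of 0.82, averaging 1.00 ± 0.25, so 2-fold was passed on array 1 only. The second Col18a1 probe had intensities of 218 and 200 in GFPhigh, against 157 and 139 in GFPlow. Its log2 ratio was 0.50 ± 0.04, in the same direction and smaller. At a threshold of 1.5-fold on both arrays, Col18a1 joined Col11a2 and Lamb2 as the 3 members higher in GFPhigh, where 5.59% of all measured genes were counted.

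Col7a1, the collagen of anchoring fibrils, had intensities of 148 and 190 in GFPhigh, against 159 and 138 in GFPlow. The values overlap, and the log2 ratios of -0.11 and 0.47 had a mean of 0.18 ± 0.41. Col4a4, a type IV chain of specialised basement membranes, was at -0.09 and -0.05, a mean of -0.07 ± 0.03, with 148 and 144 in GFPhigh, against 157 and 149 in GFPlow. Its probe could be placed over only 29 of its bases in the mm9 coordinates of the files. The 6 measured basement membrane genes had a median log2 ratio of 0.06, against -0.06 over all measured genes. For the 4 of them above background in all 4 channels it was 0.59, against 0.04 over all genes under the same filter. Only Lamb2 was counted in either direction.

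**Figure D3:**
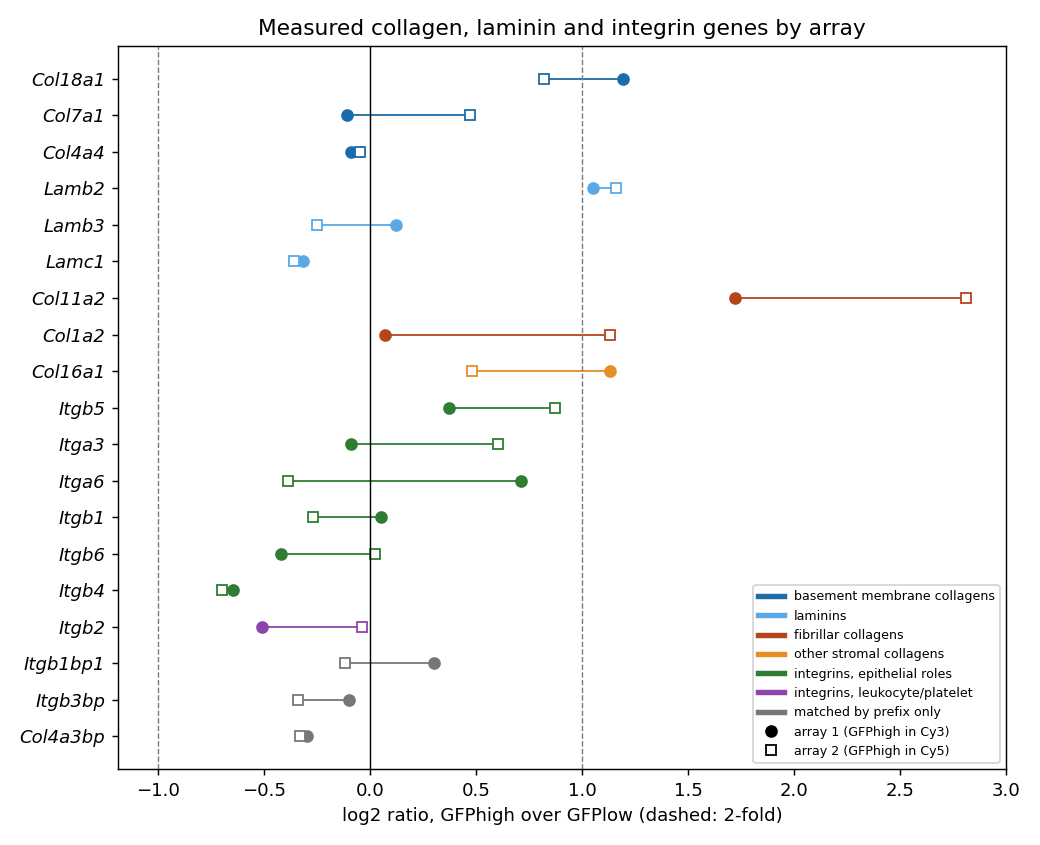
Log2 ratio of GFPhigh over GFPlow for the 19 measured genes on array 1 (filled circles) and array 2 (open squares), coloured by class, with dashed lines at 2-fold. Col11a2 and Lamb2 lie beyond 2-fold on both arrays, and 7 genes have the arrays on opposite sides of 0.

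Among stromal collagens, Col11a2 had the highest ratio of all members. It encodes a chain of type XI collagen, a minor fibrillar collagen best known from cartilage. Its measured probe had intensities of 806 and 1232 in GFPhigh, against 245 and 176 in GFPlow. The populations were far apart on both arrays, at log2 ratios of 1.72 and 2.81, which average 2.26 ± 0.77 (4.80-fold). The lowest value over all processing alternatives was 1.48, and the highest was 2.81. The other Col11a2 probe, the one with the GGN repeat printed above, had intensities of 99.0 and 98.2 in GFPhigh, against 89.8 and 89.0 in GFPlow, none of them well above background. Its log2 ratio was 0.14 on each array. The result for Col11a2 therefore rests on 1 of its 2 probes.

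Col1a2, a chain of type I collagen, the main fibrillar collagen of connective tissue, had intensities of 244 and 406 in GFPhigh, against 233 and 186 in GFPlow. GFPhigh was the brighter on both arrays, by log2 ratios of 0.07 and 1.13, a mean of 0.60 ± 0.75. The ratio passed 2-fold on array 2 only, and with spike-in centring it was -0.19. Its partner chain Col1a1, read by 3 probes, had no channel well above background. On the Col1a1 probe spotted 10 times, with 9 spots kept on array 1, the spots had a mean log2 ratio of 0.05 ± 0.09 (SD, n = 9 spots) on array 1 and of 0.06 ± 0.13 (SD, n = 10 spots) on array 2.

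Col16a1, a collagen associated with fibrils, had intensities of 377 and 248 in GFPhigh, against 173 and 178 in GFPlow. The populations did not overlap, and the log2 ratio averaged 0.81 ± 0.46, from 1.13 on array 1 and 0.48 on array 2. With spike-in centring it was 0.02. For Col1a2 and for Col16a1 the second probe was at background, with log2 ratios of -0.06 ± 0.15 and 0.02 ± 0.13. All 3 measured stromal collagens were above background in all 4 channels, so they were not kept through GFPhigh alone. They were 3 of 31, with a median of 0.81, and the remaining 28 had no measured probe.

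The measured and unmeasured probes of these 3 genes differed in where they lie. In each, the measured probe was the last along the gene's strand, 13604 bases past the other for Col11a2, 26846 for Col1a2 and 43982 for Col16a1, counted along the genome and so including introns. Of the 12 members with a measured and an unmeasured probe, the probe that represents the gene was the last along the strand in 7. In Col4a4, Itga3, Itgb1bp1 and Itgb3bp an unmeasured probe lay further along, and in Itgb4 the overlapping probe ended 10 bases later. What part the probe position has in these results was not tested.

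**Figure D4:**
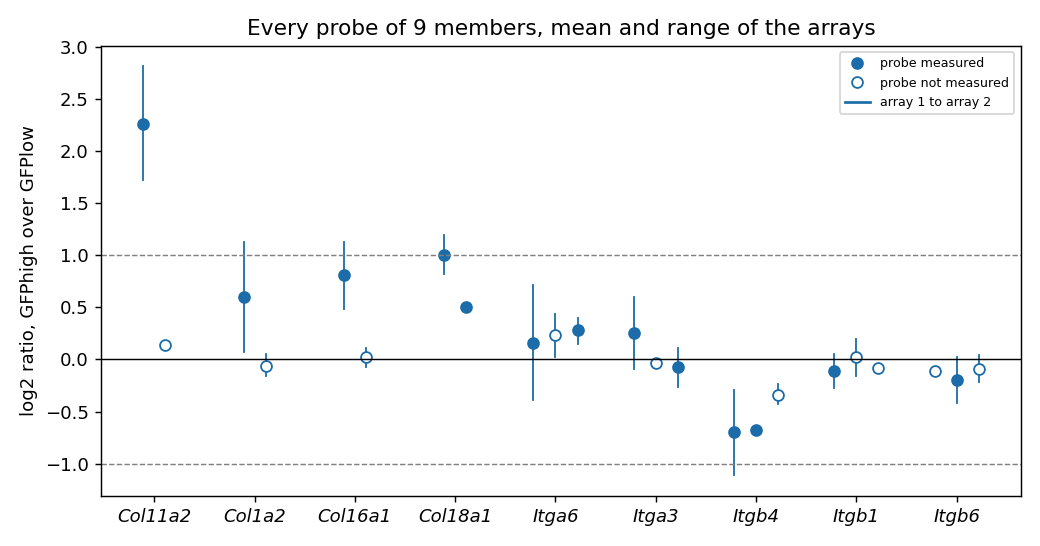
Log2 ratio of GFPhigh over GFPlow of every probe of 9 members, as the mean (circle) with a line from array 1 to array 2, and dashed lines at 2-fold. Filled circles are measured probes; the open circles of Col11a2, Col1a2 and Col16a1 lie near 0, while both measured probes of Col18a1 are above 0 and both of Itgb4 below.

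Markers of other cell types are given beside the stromal collagens. Of 12 fibroblast markers, 10 were not well above background in any channel, among them Dcn, Lum, Pdgfra, Pdgfrb and Vim. Only Fbln1 was measured, with arrays of opposite sign (0.47 and -0.86). Summed over the list, normalized intensities were 1116 and 1111 in GFPhigh, against 1048 and 1163 in GFPlow, and these sums overlap. This sum and those of the other marker lists include genes at background, which keep an intensity above 0 after the offset of 50. Where most genes of a list are at background, its sums are near equal in any case and do not compare cell content. Of 9 smooth muscle markers, Acta2, Tagln and Actg2 were measured, at -0.55 ± 0.16, 0.41 ± 0.72 and 0.20 ± 0.77, and the sums were 1282 and 1372 in GFPhigh, against 1478 and 1345 in GFPlow. Myh11, Des and Cnn1 were not well above background in any channel. Endothelial markers had 2 of 11 measured, Egfl7 (-0.62 ± 0.39) and Esam (0.48 ± 0.05), with sums of 1187 and 1268 in GFPhigh, against 1173 and 1238 in GFPlow. What part other cell types have in the collagen values was not tested.

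All 11 epithelial markers were measured, with 0 higher in GFPhigh and 3 higher in GFPlow: the pit cell genes Gkn2 (-3.24 ± 0.55) and Muc5ac (-2.33 ± 0.37) and the keratin gene Krt19 (-2.24 ± 0.04). The gland mucus gene Tff2 was at 1.82 ± 1.22 and passed 2-fold on array 2 only. Of 6 nerve and glia markers 2 were measured, Uchl1 (-0.38 ± 0.04) and S100b (0.19 ± 0.21), and the list summed to 930.6 and 869.9 in GFPhigh, against 894.8 and 841.7 in GFPlow. Of 5 platelet markers 0 were measured, with sums of 447.5 and 404.7 in GFPhigh, against 427.2 and 443.3 in GFPlow.

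Among the integrins with epithelial roles, Itga6 and Itgb4 form the laminin receptor of hemidesmosomes, which anchors epithelial cells to the basement membrane. Itgb4 had intensities of 1185 and 1118 in GFPhigh, against 1861 and 1821 in GFPlow, on its first probe. All GFPhigh values were below all GFPlow values, and the log2 ratio was -0.65 and -0.70, a mean of -0.68 ± 0.04. The second probe, which shares 50 bases with it, had intensities of 1220 and 868 in GFPhigh, against 1490 and 1877 in GFPlow. Here array 1 gave a log2 ratio of -0.29 and array 2 one of -1.11, averaging -0.70 ± 0.58. The probes thus gave nearly equal means and very unequal spreads. Neither reached 2-fold on both arrays. At a threshold of 1.5-fold Itgb4 was the 1 member counted as higher in GFPlow, where 7.5% of all measured genes were.

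Itga6 had intensities of 2165 and 1356 in GFPhigh, against 1322 and 1776 in GFPlow. The populations overlap, and the log2 ratio averaged 0.16 ± 0.78, from 0.71 on array 1 and -0.39 on array 2. Its second measured probe was at 0.40 and 0.15, a mean of 0.28 ± 0.17. The ratios of the 2 subunits of this receptor were thus on opposite sides of 0 in the mean, while the spread of Itga6 between arrays was larger than its mean. That difference between Itga6 and Itgb4 was not tested.

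Itgb5, which pairs with Itgav to bind vitronectin, had intensities of 1875 and 2305 in GFPhigh, against 1449 and 1264 in GFPlow. The populations did not overlap, and the log2 ratio was 0.37 and 0.87, a mean of 0.62 ± 0.35, short of 2-fold on both arrays. It was -0.12 with median centring and -0.17 with spike-in centring, so its direction depended on the centring. Its partner Itgav was not measured by any of its 6 probes.

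Itgb1, the beta subunit shared by most matrix-binding integrins, had intensities of 160 and 144 in GFPhigh, against 154 and 173 in GFPlow, averaged over the 10 spots of its probe. On array 1 the spots ran from -0.11 to 0.25 around a mean of 0.05 ± 0.13, and on array 2 from -0.50 to 0.15 around -0.27 ± 0.21 (SD, n = 10 spots each). The mean of the arrays was -0.11 ± 0.22. Itga3, which pairs with Itgb1 as a laminin receptor, had intensities of 169 and 202 in GFPhigh, against 180 and 133 in GFPlow, on the probe that represents it. Its log2 ratio was -0.09 and 0.60, a mean of 0.25 ± 0.49, and another probe was at -0.07 ± 0.26. Itgb6, an epithelial subunit that pairs with Itgav, had 152 and 173 in GFPhigh, against 204 and 170 in GFPlow, at log2 ratios of -0.42 and 0.02, a mean of -0.20 ± 0.31. In each of these 3 genes the arrays had opposite signs. Itga2, Itga1, Itga5, Itga9 and Itgb8 were not well above background in any channel.

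Itgb2, the beta subunit common to leukocyte integrins, was the only measured member not well above background in GFPhigh on either array. Its intensities were 114 and 117 in GFPhigh, against 162 and 121 in GFPlow, with log2 ratios of -0.51 and -0.04, a mean of -0.28 ± 0.33. Beside it, 11 of 12 leukocyte markers, Ptprc and Csf1r included, had no channel well above background, and the measured one, Fcer1g, was at -0.12 ± 0.35. Leukocyte marker sums were 1097 and 1075 in GFPhigh, against 1105 and 1033 in GFPlow. Lamc1, Col4a4, Itgb1, Itgb6 and Itgb3bp were above background in GFPhigh on array 1 alone and, like Itgb2, were kept through GFPlow. The 7 measured integrins had a median of -0.11, and the 4 above background in all 4 channels had one of 0.21, so the sign of the median depended on the filter. Over all genes above background in all 4 channels the median was 0.04. Of the 7, 0 were counted in either direction.

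The 3 measured genes matched by their first letters only had mean log2 ratios from -0.32 to 0.09, and 0 were counted in either direction. Col4a3bp was at -0.30 and -0.33, a mean of -0.32 ± 0.02, with 263 and 251 in GFPhigh, against 325 and 316 in GFPlow. Itgb1bp1, a cytoplasmic partner of Itgb1, was at 0.30 and -0.12, a mean of 0.09 ± 0.30, and the kinetochore gene Itgb3bp at -0.10 and -0.34, a mean of -0.22 ± 0.17. Without these the median of the members was 0.17 over 16 genes.

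Genes that act with the members were taken from further lists. Of 16 other basement membrane and adhesion receptor genes, 7 were measured, and 0 were counted in either direction, with a median of 0.07. Agrn (agrin, a heparan sulfate proteoglycan) was at -0.68 ± 0.13, Plec (plectin, which links hemidesmosomes to keratins) at 0.61 ± 0.02, Hspg2 (perlecan) at 0.48 ± 0.16 and the syndecan gene Sdc1 at -0.34 ± 0.71. Agrn and Hspg2, both proteoglycans of basement membranes, did not overlap between populations and lay in opposite directions. The nidogen genes Nid1 and Nid2 were not well above background in any channel.

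Of 28 collagen processing genes, 9 were measured, with a median of 0.38, and 1 was higher in GFPhigh. That was Ppib, a prolyl isomerase of the endoplasmic reticulum that acts on collagen and on many other secreted proteins, at 1.78 ± 0.52. Its intensities were 21220 and 32790 in GFPhigh, against 7978 and 7418 in GFPlow. Mia3, which helps load bulky cargo such as collagen for export, was at 1.17 ± 0.33 and passed 2-fold on array 2 only. P4hb, a prolyl hydroxylase subunit that is also a general disulfide isomerase, was at 0.48 ± 0.33, and the lysyl hydroxylase gene Plod3 was at 0.39 ± 0.21. The lysyl oxidase genes Lox, Loxl1, Loxl2, Loxl3 and Loxl4, which cross-link collagen, were not well above background in any channel.

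Of 24 focal adhesion genes, which join integrins to actin, 13 were measured, with a median of -0.25. Of these, 0 were counted as higher in GFPhigh. Zyx (zyxin) was at -0.89 ± 0.54, Tns1 (tensin) at 0.67 ± 0.47 and Actn4 (actinin) at -0.64 ± 0.26. Of 14 matrix proteases and inhibitors, 6 were measured and 0 counted, with a median of 0.52. Among them Timp2, a metalloprotease inhibitor, was at 0.83 ± 0.54, the membrane metalloproteases Mmp14 and Mmp15 at 0.60 ± 0.01 and 0.50 ± 0.12, and Timp1 at 0.53 ± 0.05. Mmp15 was kept through GFPhigh alone, so the filter fixed the sign of its mean ratio. The median of this list includes genes kept through GFPhigh alone or through GFPlow alone.

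**Figure D5:**
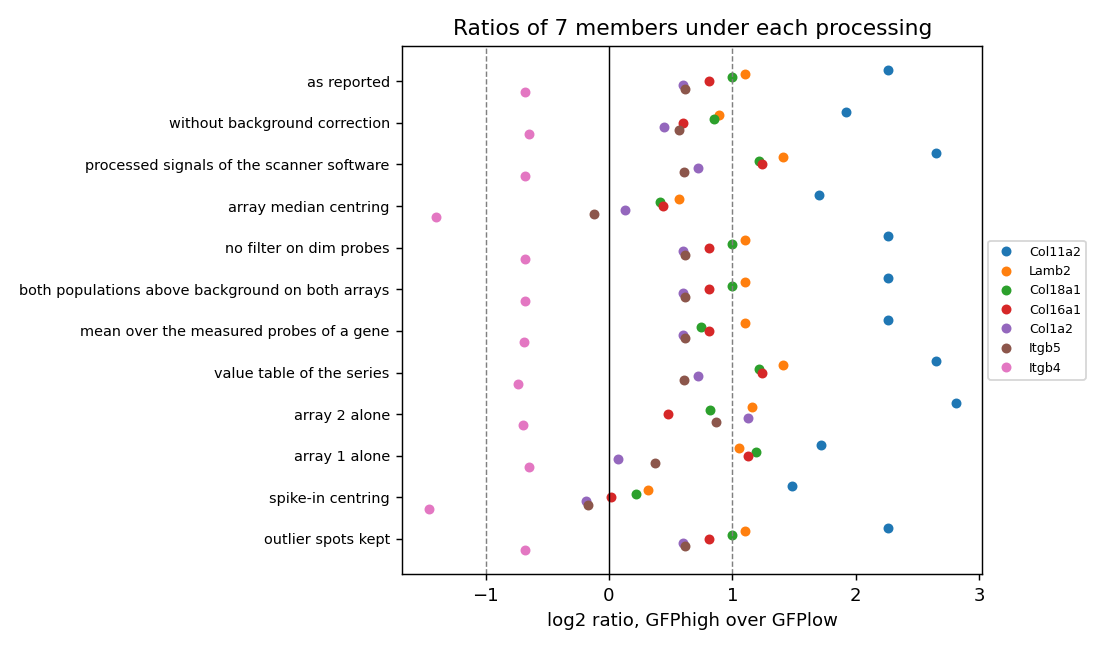
Log2 ratio of GFPhigh over GFPlow of 7 members under each processing alternative that acts on ratios (rows), with dashed lines at 2-fold. Col11a2 stays at or above 1.48 in every row, Itgb4 stays below 0, and Lamb2 passes below 2-fold without background correction and under median and spike-in centring.

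As a check of the sort, Lgr5 had log2 ratios of 2.33 and 2.24, higher in GFPhigh on both arrays. Of all gene spots, 28.6% and 18.7% were well above background in GFPhigh on arrays 1 and 2, against 25.1% and 31.7% in GFPlow. Across the 9499 measured probes, which are not independent replicates, the difference between the arrays had an SD of 0.56. That is the spread of a difference between 2 arrays. A mean of 2 arrays varies less, so the mean ratios of the members are not to be held against it. The number of arrays limits the precision of every value.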

How the data were processed

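GFPhigh and GFPlow RNA, extracted with Trizol and labelled from 150 ng after linear amplification per the labels, was hybridised on 2 two-colour arrays. The deposited scanner files give mean and local background intensity per channel and, per the file headers, processed intensities and a log10 ratio of Cy5 over Cy3 from Feature Extraction 10.5.1.1 (9.5.3 in the submitters' processing notes). The deposited value table holds log10 ratios without a stated direction. Set against the scanner ratios turned to GFPhigh over GFPlow, they differed by at most 4.98e-06 on array 1 and 0.005 on array 2, so scale and direction were settled. Its column medians were 0.0188 and -0.0458, and it was not centred further.

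Mean intensities were background-corrected (normexp, offset 50) and loess-normalized within arrays in limma 3.58.1 under R 4.3.3, with control spots at weight 0 and outlier spots left out. Offset and normexp pull dim probes towards 0. Ratios were put on the log2 scale and turned by the dyes of the labels. Spots of a probe were averaged, and the measured probe of highest signal represented its gene. Intensities given were also normalized between arrays (Aquantile).

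Names of other genes came from the RefSeq table of GRCm38.p6, used for names only. The ratio and count steps were tested on simulated data. Members and lists were chosen with earlier results of these data known. Every measured member is named, and of each other list up to 4 genes with the largest absolute mean ratio, while genes named as not above background were picked after their values were seen. The alternatives were background, centring, filter, probe rule, threshold, deposited values and single arrays. Those chosen after seeing the data were centring on spike-ins, keeping outlier spots and leaving out prefix matches. Some results on single genes are not reported here.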

Additional observations from a re-analysis of the deposited data

How the results depend on the processing

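The count of members higher in GFPhigh was 2 and became 1, Col11a2 alone, without background correction, with median centring and with spike-in centring. It was 3 of 21 measured members with array 2 alone and 4 of 27 with array 1 alone, where a ratio on 1 array was enough. Over all genes measured in these settings, 371 of 9123 and 349 of 9450 were counted as higher in GFPhigh. The count for GFPlow was 0 and became 1 (Itgb4) at 1.5-fold and 2 (Itgb4 and Itgb2) with spike-in centring. The median over all measured genes moved to -0.49 with median centring and -0.81 with spike-in centring, where the counts over all genes were 10 and 23 higher in GFPhigh against 215 and 1322 higher in GFPlow. With the processed signals these counts were 352 and 511, without background correction 93 and 145, and with the deposited values 352 and 508. At 1.5-fold they were 438 and 587, with array 2 alone 371 and 499, and with array 1 alone 349 and 400.

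The median of the measured members was -0.37 with median centring, -0.70 with spike-in centring, 0.25 with the processed signals, the value table or both populations above background, 0.02 with no filter and 0.17 without prefix matches, and ran from -0.05 to 0.12 on single arrays. The basement membrane median was -0.20 with median centring, -0.73 with spike-in centring, 0.25 with processed signals or the value table and 0.59 with both populations above background, and ran from -0.04 to 0.02 on single arrays. The stromal collagen median was 0.44, 0.02, 1.24 and 1.24 with median centring, spike-in centring, processed signals and the value table, 0.60 without background correction and 0.02 over 31 genes with no filter, and ran from 0.60 over 6 genes to 1.13 over 3 genes on single arrays. The integrin median was -0.39, -0.89, -0.42 and -0.42 under the first 4 of these, -0.06 without background correction, 0.01 with no filter and 0.21 with both populations above background, and ran from -0.08 to -0.02 on single arrays. The cause of these shifts was not tested. Neither Col11a2 nor Lamb2 changed direction in any alternative run. Signal over background limited the comparison to 19 of 83 genes.

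Each ratio pairs the populations within an array. No paired test was possible because the arrays were treated as repeat measurements of 1 RNA sample per population.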
